A study of Mus musculus with 14 samples.

Results

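The genes described here are 10 members of the heat shock system of the cytosol and mitochondria: the heat shock factor Hsf1, the HSP70 genes Hspa8, Hspa1a and Hspa1b, the HSP110 gene Hsph1, the HSP40 gene Dnajb1, the HSP90 gene Hsp90aa1, the small heat shock gene Hspb1, and the mitochondrial chaperonin genes Hspd1 and Hspe1. They were chosen by name, and the estimated counts of all transcripts of each gene were summed in every library. All 10 were among the 24983 genes with a count above 0, and all 10 passed the filter on low counts that left 13131 tested genes. RNA was sequenced from mouse liver, and all recipients were kept on a high-fat diet. In the transplant group (n = 6, titled "iBAT 2x") the recipients carried silk scaffolds seeded with cells that the sample labels call pre-adipocytes and the series' design text calls differentiated, from the stromal fraction of brown fat. In the empty scaffold group (n = 8, titled "Sham-WT") the silk held no cells. Beyond the letters WT in one title, the sources used here give neither genotype, strain, age nor sex of the recipients, nor the meaning of "2x". The liver itself was not engineered in either group as far as the labels say, and both groups shared the diet and the scaffold.

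Heat shock proteins are chaperones that bind unfolded or newly made proteins. HSF1, held inactive by chaperones in unstressed cells, binds heat shock elements (inverted repeats of the unit GAA) after heat or other proteotoxic stress and raises the transcription of many of these genes. HSP70 works with HSP40 partners, which deliver substrates and trigger ATP hydrolysis, and with HSP110 proteins, which exchange its nucleotide. HSP90 matures client proteins such as kinases and the glucocorticoid receptor with a set of cochaperones, and HSP60 with its lid HSP10 folds proteins of the mitochondrial matrix. Hspa8 encodes the constitutive HSP70, whereas Hspa1a and Hspa1b encode the strongly inducible one.

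The sequences below are shown because Hspa1a and Hspa1b are near-identical copies of which 1 passed the test and the other did not, and because Hspd1 and Hspe1 share 1 upstream region. They were taken from RefSeq's mouse promoter table (build GRCm38.p6), which held windows of 7 of the 10 genes. Hspa8, Hsp90aa1 and Hsf1 had no entry. Each sequence is printed 5′ to 3′ on the named strand, and capitals mark matches to the heat shock unit pairs GAANNTTC or TTCNNGAA. The first pair are the 250 bases before the start sites of Hspa1a (chr17:34972157-34972406, minus strand) and Hspa1b (chr17:34959239-34959488, minus strand). The next is a stretch of 30 bases between the start sites of Hspd1 and Hspe1 (chr1:55088053-55088082, plus strand, the strand of Hspe1). In GENCODE M21 this stretch also falls in the first exon of a minor Hspd1 transcript, ENSMUST00000127861. The last are 50 bases before the start site of Hspb1 (chr5:135887789-135887838, plus strand) and 30 bases before that of Hsph1 (chr5:149636351-149636380, minus strand), of which 26 lie in an exon of a minor Hsph1 transcript.
Hspa1a: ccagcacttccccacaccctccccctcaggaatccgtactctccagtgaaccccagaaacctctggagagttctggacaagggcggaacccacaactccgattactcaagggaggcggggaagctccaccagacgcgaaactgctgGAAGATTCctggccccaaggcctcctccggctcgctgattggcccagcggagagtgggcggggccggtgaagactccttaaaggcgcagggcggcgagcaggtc
Hspa1b: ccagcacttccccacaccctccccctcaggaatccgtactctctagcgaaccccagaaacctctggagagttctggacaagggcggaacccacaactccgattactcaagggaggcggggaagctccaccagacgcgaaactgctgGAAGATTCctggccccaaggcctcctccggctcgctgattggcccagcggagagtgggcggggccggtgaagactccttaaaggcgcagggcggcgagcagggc
Hspd1 and Hspe1: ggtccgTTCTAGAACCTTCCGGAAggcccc
Hspb1: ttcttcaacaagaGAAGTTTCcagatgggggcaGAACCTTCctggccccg
Hsph1: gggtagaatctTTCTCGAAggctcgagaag

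The upstream sequences of Hspa1a and Hspa1b differed at 3 of 250 positions, C44T, T47C and T249G (Hspa1a base first, counted from the first printed base), and were 98.8% identical. Both carry GAAGATTC 104 bases before the start site. RefSeq gives Hspd1 a pair of start sites. The run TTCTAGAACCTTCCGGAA lies between the Hspe1 start site and the Hspd1 site at base 55087932, which are 216 bases apart on opposite strands. The other Hspd1 site, at base 55088243, lies past the Hspe1 start, and its window held no GAANNTTC. The first base of the run lies 89 bases upstream of Hspe1. On the other strand the first base of the run lies 144 bases upstream of the Hspd1 site at base 55087932. Searched on both strands in windows of 300 bases (ending 50 bases after the start site), GAANNTTC was present in 6 of the 7 genes with a window, all but Dnajb1, against 9.04% of 27025 genes in the table. The pair TTCNNGAA was present in 3 of the 7 (Hspd1, Hspe1 and Hsph1), against 9.60% of all genes. A run of 3 units (GAA, TTC and GAA, or TTC, GAA and TTC, each parted from the next by 2 bases of any kind, which holds both pairs) was present in the same 3 genes, against 0.662% of all genes. Hspd1 and Hspe1 hold the same run, and Hspa1a and Hspa1b are near-identical copies, so the genes in these counts are not separate cases. In Hsph1 the run and GAANNTTC lie after the start sites, outside the printed stretch. They begin at bases 37 and 42 counted from 1 start site, and at 16 and 21 from the other. Such a match is a description of the letters in the window and no measurement of binding.

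The libraries held 22898793 to 28910968 estimated counts in the transplant group and 19482580 to 28723928 in the empty scaffold group. The sample titles carry numbers whose meaning is not given. Transplant replicates 4 to 6 and empty scaffold replicates 5 to 8 have numbers below 100, and the other 3 and 4 libraries have numbers of 100 or above. Since the groups hold separate blocks of numbers inside each range, group and number cannot be told apart there. Hepatocyte markers summed to 99484 to 151304 CPM in transplant and 80020 to 144567 CPM in empty scaffold livers. Against these levels, 5 of 11 Kupffer cell, 2 of 8 sinusoidal endothelial and 2 of 8 stellate cell markers fell in the transplant group, where 4.23% of all tested genes fell. With trends of gene level with transcript length and GC content removed these counts were 6, 0 and 0, in a fit that called 4.70% of all genes. They were 3, 1 and 0 with an offset from effective lengths (2.40%) and 3, 2 and 0 without a filter (2.68%). Without scaling factors they were 9, 7 and 5 (22.0%). Of the other marker lists, 1 of 8 hepatocyte markers (Serpina1c) and the 1 tested skeletal muscle marker (Mylpf) rose, and 1 of 2 tested neutrophil markers (Csf3r) fell. The summed Kupffer markers were at 155 to 234 CPM against 198 to 469 CPM, the endothelial ones at 94.1 to 138 against 123 to 196, and the stellate ones at 142 to 257 against 171 to 367. No marker of these lists was at 0 in every library. In whole liver, fewer cells of a type and less RNA per cell cannot be told apart, and the part of these cells in the results below was not tested.

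Among the 10 heat shock genes, Hspe1, the mitochondrial HSP10, rose in transplant livers and Hspa1a, one copy of the inducible HSP70, fell. The other 8 did not pass the test, including Hsf1, Hspd1, Hsp90aa1, Hspa1b and the abundant Hspa8. The test was edgeR's quasi-likelihood test with Benjamini-Hochberg adjustment over all tested genes, called at an adjusted p under 0.05, and it called 2 of 10 members where it called 7.54% of all 13131 genes (3.31% higher and 4.23% lower). The median log2 fold change of the 10 (transplant minus empty scaffold throughout) was 0.07, against -0.02 over all tested genes. As a share of all estimated counts the 10 genes together took 0.191% ± 0.0305 (SD, n = 6) in the transplant and 0.188% ± 0.0106 (SD, n = 8) in the empty scaffold group. Other fits called other numbers of the 10: 3 with DESeq2 (15.0% of all genes), 2 with RLE size factors (7.13%), 1 without scaling factors (22.0%), 1 without a filter (2.68% of 24983 genes), 1 with limma voom (6.55%) and 0 with an offset from effective lengths (2.40%, 4 members at an unadjusted edgeR p under 0.05). With trends of gene level with transcript length and GC content removed 1 was called (4.70%), with the number range as a covariate 3 (19.6%) and with both 2 (8.87%). Libraries numbered below 100 alone gave 0 (0.0231%, 2 members at an unadjusted edgeR p under 0.05) and those of 100 or above 3 (26.0%). The labels do not say that the samples are separate animals, so all p-values here measure the spread between these samples.

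**Figure D1:**
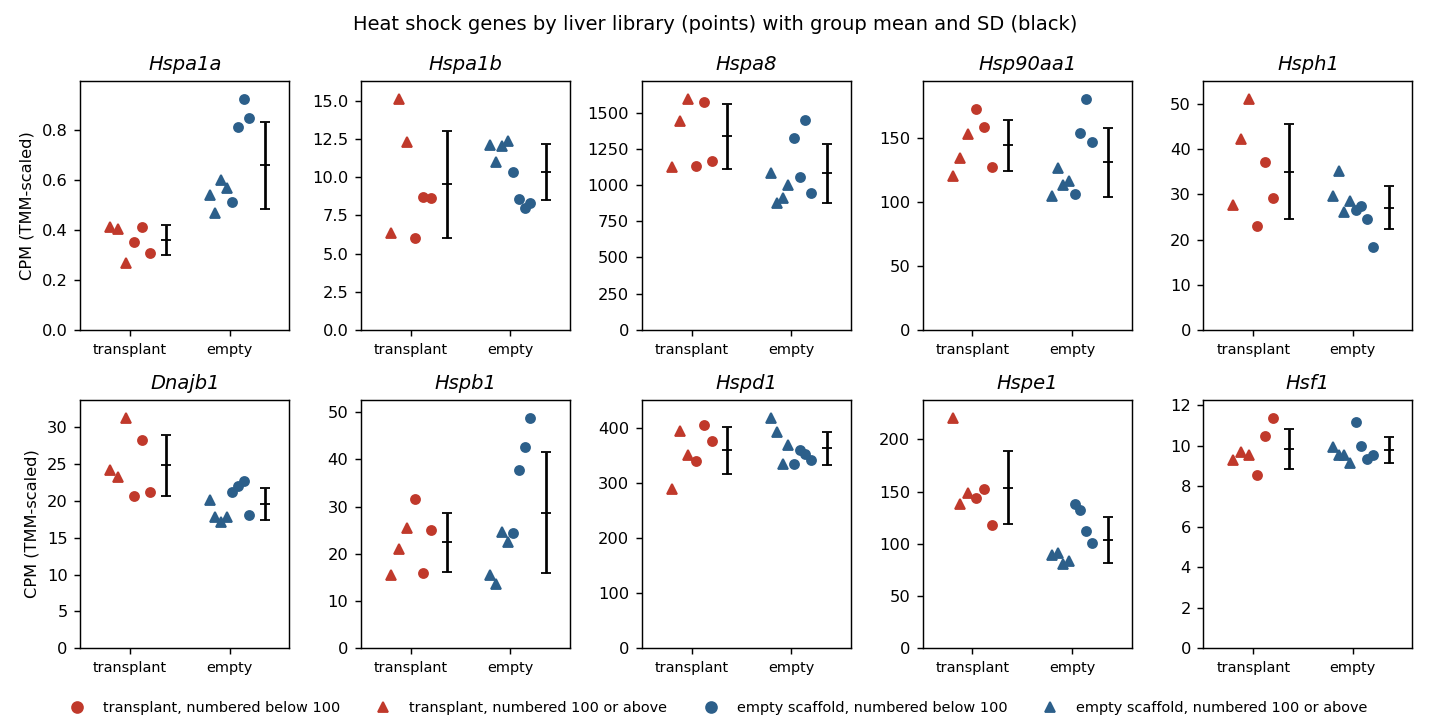
Level of each of the 10 heat shock genes in every liver library, in CPM scaled by TMM (y axis, from 0), by group (x axis) with circles for title numbers below 100 and triangles for 100 or above; black bars are the group mean and SD (n = 6 and n = 8). Hspa1a is the gene whose groups do not overlap, and Hspe1 is highest in transplant replicate 1 at 220.4 CPM.

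Per length of transcript, the 10 genes spanned more than 3 orders of magnitude in these livers. The constitutive HSP70 Hspa8 stood highest at a median of 748.8 TPM over the 14 libraries (516 to 1038), and no other member reached its lowest value. Hspe1 (219 TPM, 162 to 305) and Hspd1 (160 TPM, 94.2 to 265) followed and overlapped in range. Hsp90aa1 (80.2 TPM), Hspb1 (28.7 TPM) and Hsph1 (17.1 TPM) came next, each overlapping its neighbour. The levels of Dnajb1 (6.83 TPM), Hsf1 (5.09 TPM) and Hspa1b (3.34 TPM) overlapped as well. Hspa1a was lowest at 0.184 TPM, and its highest library (0.292 TPM) stayed below the lowest library of any other member.

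Hspa8, which encodes the HSP70 present in unstressed cells, reached 1123, 1445 and 1591 CPM in transplant replicates 1 to 3 and 1129, 1572 and 1164 CPM in replicates 4 to 6. In the empty scaffold livers it stood at 1080, 878, 911 and 998 CPM in replicates 1 to 4 and at 1326, 1057, 1451 and 943 CPM in replicates 5 to 8. All 6 transplant libraries exceeded the empty scaffold median, but only 2 exceeded its highest library. The means were 1337 ± 224 (SD, n = 6) and 1081 ± 205 CPM (SD, n = 8). The log2 fold change of 0.31 ± 0.14 (SE) did not pass edgeR's test (adjusted p = 0.143). Within the libraries numbered 100 or above the groups did not overlap and the difference was 0.52 (edgeR adjusted p = 0.0274), while below 100 it was 0.11 (edgeR adjusted p = 0.892). Non-overlap within the upper range held for 39.0% of all tested genes, and 26.0% were called there, 14.5% as higher. In TPM, which was not tested, the mean of Hspa8 was 724 in transplant and 760 in empty scaffold livers. Nearly all Hspa8 counts were divided between a pair of protein-coding transcripts. ENSMUST00000015800 (2394 bases) held a median of 46.8% of the gene in transplant and 61.8% in empty scaffold livers, and ENSMUST00000117557 (2019 bases) 49.997% and 33.2%. The ranges of both shares overlapped between groups (37.2% to 63.7% against 37.7% to 68.2% for the first).

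The inducible HSP70 copies were both low, and the scarcer one, Hspa1a, fell while Hspa1b did not pass the test. The difference between the copies was not tested. Hspa1a stood at 0.413, 0.404, 0.268, 0.352, 0.412 and 0.309 CPM in transplant replicates 1 to 6. In empty scaffold replicates 1 to 8 it stood at 0.539, 0.469, 0.600, 0.567, 0.513, 0.812, 0.922 and 0.846 CPM. Every transplant library was below every empty scaffold library, which was so for 0.701% of all tested genes. The means were 0.360 ± 0.0609 (SD, n = 6) and 0.659 ± 0.174 CPM (SD, n = 8), which on the log2 scale is -0.85 ± 0.24 (edgeR adjusted p = 0.0414). These levels rest on 6.23 to 10.84 estimated counts per transplant and 11.88 to 21.38 per empty scaffold library.

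How a read is divided between the copies bears on that value. Of the 31-base words in the Hspa1a transcript, 70.1% also occur in transcripts of other genes and 63.8% in Hspa1b, so the split of shared reads was estimated rather than observed and the fall of Hspa1a is uncertain. Hspa1b, with 253 estimated counts per library on average, stood at 6.37, 15.1, 12.3, 6.04, 8.72 and 8.65 CPM in transplant and at 12.1, 10.97, 12.1, 12.4, 10.4, 8.56, 8.01 and 8.30 CPM in empty scaffold livers. The groups overlapped widely, transplant replicate 2 holding the highest value and replicate 4 the lowest (log2 fold change -0.12 ± 0.19, edgeR adjusted p = 0.689; its direction turned to 0.08 with length and GC trends removed). Summed, the copies gave 9.89 ± 3.52 (SD, n = 6) and 11.01 ± 1.69 CPM (SD, n = 8), or -0.16 ± 0.18 on the log2 scale (edgeR adjusted p = 0.571). The share of the sum assigned to Hspa1a was 2.13% to 6.09% in transplant and 4.10% to 10.3% in empty scaffold livers. Leaving out single libraries, the fall of Hspa1a stayed called without empty scaffold replicates 1, 2, 5, 6 or 7 and was lost without any of the other 9 libraries, at adjusted p of up to 0.0806 with log2 fold changes of -0.92 to -0.77. It was also lost with trends removed (-0.63, edgeR adjusted p = 0.135), with the range covariate added to that (-0.61, edgeR adjusted p = 0.111), without a filter (edgeR adjusted p = 0.0938), with the effective length offset (edgeR adjusted p = 0.0646) and with limma voom (adjusted p = 0.0510). Below 100 the log2 fold change was -1.13 and at 100 or above -0.57 (edgeR adjusted p = 0.403 and 0.224).

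Dnajb1, an HSP40 that works with inducible HSP70, had the smallest adjusted p of the members that missed the threshold. It stood at 24.2, 23.3, 31.2, 20.6, 28.2 and 21.1 CPM in transplant replicates 1 to 6. In empty scaffold replicates 1 to 8 it stood at 20.1, 17.8, 17.0, 17.7, 21.2, 21.96, 22.7 and 18.05 CPM. All 6 transplant libraries were above the empty scaffold median and 4 were above its highest library. The means were 24.8 ± 4.16 (SD, n = 6) and 19.6 ± 2.19 CPM (SD, n = 8), with a log2 fold change of 0.34 ± 0.11 (edgeR adjusted p = 0.0582). When trends of gene level with transcript length and GC content were removed from each library, the difference was 0.51 and passed (edgeR adjusted p = 0.0323). It also passed with DESeq2 (0.36, adjusted p = 0.0245), with the number range as a covariate (0.34, edgeR adjusted p = 0.0333) and without empty scaffold replicate 6 or 7 (0.37 each, edgeR adjusted p = 0.0486 and 0.0352). Without scaling factors it was 0.13 (edgeR adjusted p = 0.411). In libraries numbered 100 or above it was 0.53 and passed, and below 100 it was 0.16 and did not (edgeR adjusted p = 0.0186 and 0.771). The difference between the ranges, 0.37 ± 0.19, did not pass (edgeR adjusted p = 0.329). In TPM, which was not tested, the mean of Dnajb1 was 6.78 in transplant and 7.18 in empty scaffold livers.

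Hsph1, the HSP110 that exchanges nucleotide on HSP70, ranged from 23.1 to 51.1 CPM (median 33.2) in transplant and from 18.3 to 35.1 CPM (median 27.0) in empty scaffold livers. The highest values were those of transplant replicates 3 (51.1), 2 (42.3) and 5 (37.1), and the other 3 transplant libraries lay within the empty scaffold range. The log2 fold change was 0.38 ± 0.16 and did not pass (edgeR adjusted p = 0.137). Transplant replicate 3 was also the highest library of the series for Hspa8 and Dnajb1. Hsph1 counts were spread over 4 transcripts with 44.8%, 31.1%, 12.7% and 10.3% of the gene on average, the third being a retained intron form.

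Hsp90aa1, the inducible cytosolic HSP90, ranged from 120 to 172 CPM in transplant and from 104 to 180 CPM in empty scaffold livers. The values overlapped almost fully (144 ± 20.2 against 131 ± 26.9 CPM, SD, n = 6 and n = 8). Its log2 fold change was 0.14 ± 0.13 (edgeR adjusted p = 0.487), and it turned to -0.07 without scaling factors. One protein-coding transcript, ENSMUST00000021698, held 78.98% of its counts on average and another, ENSMUST00000094361, held 17.8%.

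Hspb1 (HSP25), a small heat shock protein that holds unfolded proteins without ATP, was the member with the widest spread among empty scaffold livers. There it stood at 15.6, 13.6, 24.6 and 22.5 CPM in replicates 1 to 4 and at 24.4, 37.8, 42.7 and 48.8 CPM in replicates 5 to 8. In transplant replicates 1 to 6 it stood at 15.6, 21.1, 25.4, 31.7, 15.9 and 25.0 CPM. The 3 highest values all belonged to empty scaffold libraries numbered below 100, and no other library passed 31.7 CPM. Over all libraries the log2 fold change was -0.36 ± 0.27 (edgeR adjusted p = 0.380). It was -0.66 below 100 and 0.11 at 100 or above, and neither passed. Of its 31-base words, 49.5% also occur in the gene Gm9817, to which under 1 estimated count per library (0.95 against 620.79) was assigned on average.

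Of the mitochondrial chaperonin pair Hspe1 rose and Hspd1 did not pass, and the difference between the genes was not tested. Hspe1, which encodes the HSP10 lid, stood at 220, 138 and 149 CPM in transplant replicates 1 to 3 and at 144, 153 and 118 CPM in replicates 4 to 6. In the empty scaffold livers it stood at 89.6, 91.5, 81.2 and 83.8 CPM in replicates 1 to 4 and at 138, 132, 113 and 100 CPM in replicates 5 to 8. In all, 5 of the 6 transplant libraries exceeded every empty scaffold library, and the overlap came from transplant replicate 6 and the empty scaffold libraries numbered below 100. The means were 154 ± 34.9 (SD, n = 6) and 104 ± 21.8 CPM (SD, n = 8), and the log2 fold change was 0.57 ± 0.15 (edgeR adjusted p = 0.0354).

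Hspd1, the HSP60 barrel encoded on the other side of the same upstream region, stood at 290, 394, 351, 341, 406 and 377 CPM in transplant replicates 1 to 6. In empty scaffold replicates 1 to 8 it stood at 418, 393, 335, 369, 334, 359, 352 and 343 CPM. Transplant replicate 1, the highest library for Hspe1, was the lowest for Hspd1. The means were 359.6 ± 42.3 and 362.9 ± 29.6 CPM (SD, n = 6 and n = 8), with a log2 fold change of -0.01 ± 0.09 (edgeR adjusted p = 0.936). That value changed sign among the fits, being -0.06 with the effective length offset and 0.02 with trends removed. The ratio of Hspe1 to Hspd1 in TPM was 1.32 to 3.24 (median 1.59) in transplant and 0.795 to 1.81 (median 1.07) in empty scaffold livers. At title numbers of 100 or above it was 1.32 to 3.24 against 0.795 to 0.893, and below 100 it was 1.40 to 1.81 against 1.24 to 1.81. In TPM Hspd1 itself was at 142 ± 43.2 (SD, n = 6) in transplant and 202 ± 59.4 (SD, n = 8) in empty scaffold livers. At 100 or above Hspd1 was at 94.2 to 208 TPM in transplant and 241 to 265 TPM in empty scaffold livers. Hspe1 was at 274 to 305 and 211 to 221 TPM there, so both genes differed in TPM in this range.

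Estimates for Hspe1 differed in size between the number ranges. The log2 fold change was 0.97 among libraries numbered 100 or above (edgeR adjusted p = 0.0143) and 0.20 below 100 (edgeR adjusted p = 0.701). The test of that difference gave 0.77 ± 0.22 with an unadjusted edgeR p of 0.00267 and an adjusted p of 0.176, so it did not pass. At that test edgeR called 0 genes of 13131, with 2275 genes and 1 of the 10 members at an unadjusted p under 0.05. No second tool was run for it. Libraries differed in how gene level changed with transcript length. The slope, in log2 units per doubling of length, was -0.297 to 0.022 in transplant libraries and -0.097 to 0.248 in empty scaffold libraries, with the 4 empty scaffold libraries numbered 100 or above at 0.196 to 0.248. The leading Hspe1 transcript is short (774 bases), transplant replicate 1 had the lowest slope, and the 4 libraries with the highest slopes had the 4 lowest Hspe1 values. The 4 highest slopes are those of the empty scaffold libraries numbered 100 or above, so slope, group and number range cannot be told apart there, and the cause was not tested. With length and GC trends removed the log2 fold change of Hspe1 was 0.31 and did not pass (edgeR adjusted p = 0.0630). With the number range added to that fit it was 0.30 and passed (edgeR adjusted p = 0.0440).

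**Figure D2:**
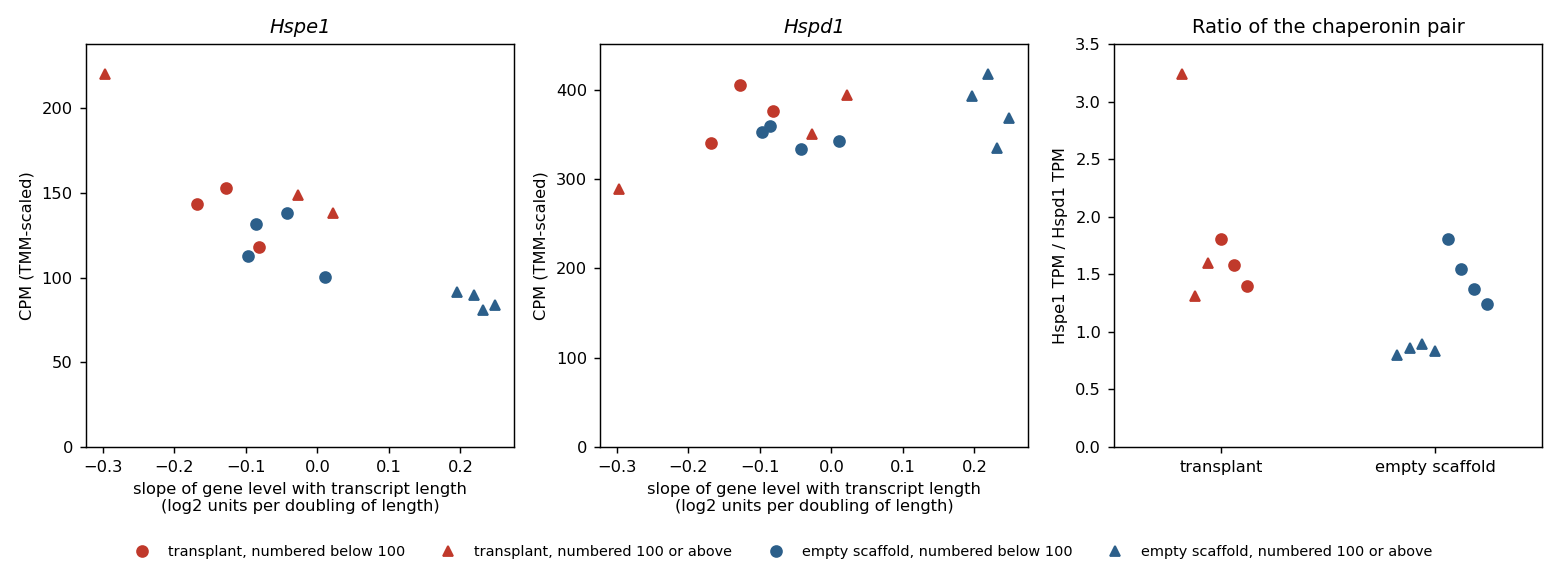
Left and middle, CPM of Hspe1 and Hspd1 (y axis) against each library's slope of gene level with transcript length (x axis, log2 units per doubling of length); right, the ratio of Hspe1 to Hspd1 in TPM by group, each point 1 liver library. The 4 empty scaffold libraries numbered 100 or above sit at slopes of 0.196 to 0.248 with Hspe1 at 81.2 to 91.5 CPM and the lowest ratios. In TPM these 4 libraries hold Hspe1 at 211 to 221 and Hspd1 at 241 to 265.

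Single libraries decided the call of Hspe1 as well. Without transplant replicate 1 its log2 fold change was 0.43 (edgeR adjusted p = 0.0984). The call was also lost without transplant replicate 3 or 5, or without empty scaffold replicate 1, 2, 3, 4 or 8, at log2 fold changes of 0.53 to 0.58 and adjusted p of 0.0548 to 0.0741, and stayed called without each of the other 6. Without scaling factors it was 0.36 and with the effective length offset 0.56, and neither passed (edgeR adjusted p = 0.0678 and 0.0649). Its counts share sequence with other genes: 44.9% of its 31-base words also occur in AC117239.2, to which 0.21 estimated counts per library were assigned on average, and 11.02% in Hspd1. On the deposited TPM scale, which divides by length and is not adjusted for a few very abundant transcripts, Hspe1 was 242 ± 53.7 (SD, n = 6) and 219 ± 34.1 (SD, n = 8), a smaller difference than in CPM.

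Hsf1, the transcription factor of the response, did not pass the test. It ranged from 8.53 to 11.4 CPM (median 9.60) in transplant and from 9.14 to 11.2 CPM (median 9.54) in empty scaffold livers. The log2 fold change was 0.01 ± 0.09 (edgeR adjusted p = 0.967), and its sign depended on the fit (-0.23 without scaling factors, 0.07 with trends removed). One of its transcripts, ENSMUST00000227478, held 78.2% of its counts on average. Transcript level of Hsf1 does not measure the activity of the protein, which is controlled mainly after translation. Of the other heat shock factors and their binding proteins, 4 of 6 were tested. Over all 14 libraries with the group as the only term, 0 were called by edgeR or DESeq2, with 1 at an unadjusted edgeR p under 0.05. With the number range as a covariate and at 100 or above edgeR called Hsbp1 as higher, where it called 19.6% and 26.0% of all tested genes. Hsf2 was at 0.04 ± 0.08 (-0.19 without scaling factors, edgeR adjusted p = 0.776) and Hsbp1, which binds HSF1, at 0.35 ± 0.16 (edgeR adjusted p = 0.146).

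**Figure D3:**
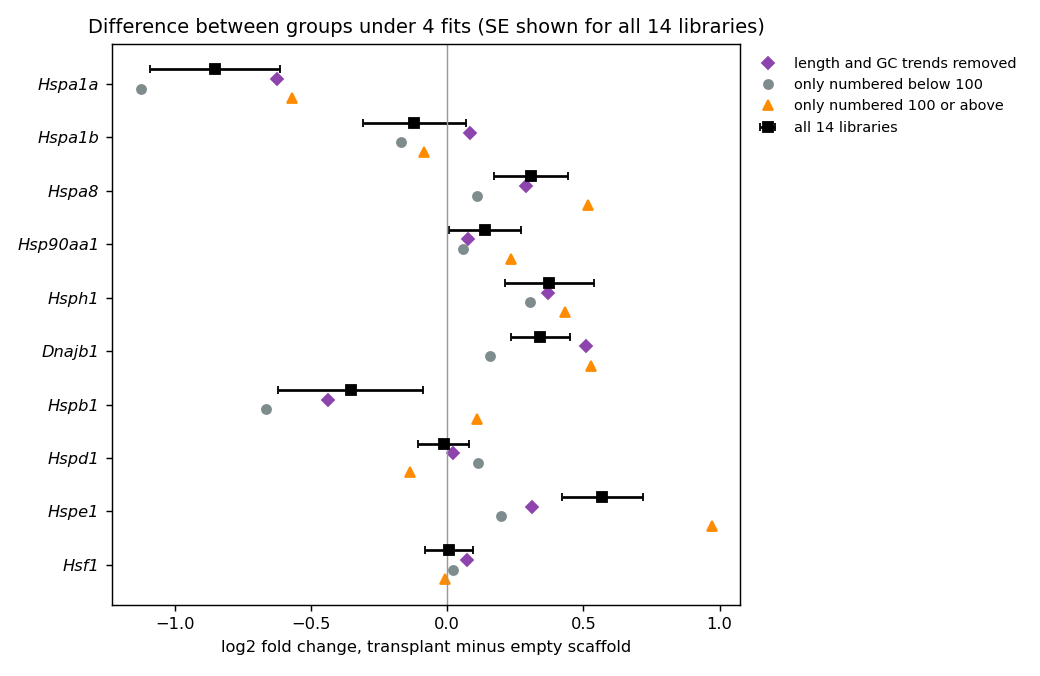
Log2 fold change of each of the 10 genes (x axis, transplant minus empty scaffold) in the fit of all 14 libraries (black squares with SE), with length and GC trends removed (diamonds), and within libraries numbered below 100 (circles) or 100 or above (triangles). Hspe1 spans 0.20 to 0.97, Hspb1 changes sign between the number ranges, and Hspa1a is negative in each of these 4 fits.

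The wider HSP90 system held 4 genes that rose. Of 18 genes for HSP90 and its cochaperones, 4 rose and 0 fell (median 0.19), where 3.31% of all tested genes rose. Without scaling factors 0 rose and 2 fell (Unc45a and Rpap3, median -0.04), where 0.891% of all genes rose and 21.1% fell. Without a filter, or with the effective length offset, Ahsa1 alone was called. Taking out the length and GC trends left 4 that rose, Ahsa1, Fkbp5, Fkbp4 and Cdc37l1, in a fit that called 4.70% of all genes. Ahsa2 (0.215) and Ptges3 (0.189) did not pass there (edgeR adjusted p = 0.105 and 0.153). DESeq2 found 5 of the 18 higher, and edgeR with the number range covariate found 6. These fits called 15.0% and 19.6% of all tested genes. Ahsa1, the activator of the HSP90 ATPase, rose from 67.2 ± 7.53 (SD, n = 8) to 88.7 ± 7.24 CPM (SD, n = 6), 0.40 ± 0.09 on the log2 scale (edgeR adjusted p = 0.0216), and its groups did not overlap, as was so in the higher direction for 0.571% of all tested genes. It was 0.19 below 100 and 0.61 at 100 or above. Its relative Ahsa2 rose by 0.30 ± 0.08 (edgeR adjusted p = 0.0394), also without overlap, but was at 0.11 with the effective length offset (edgeR adjusted p = 0.696). Ptges3, the p23 cochaperone that closes the HSP90 cycle, rose by 0.28 ± 0.08 (edgeR adjusted p = 0.0463). Fkbp5, a cochaperone of steroid receptors and itself a glucocorticoid target, rose by 0.76 ± 0.22 (edgeR adjusted p = 0.0447). It was 1.21 below 100 and 0.36 at 100 or above, and neither passed (edgeR adjusted p = 0.340 and 0.224). Other partners did not pass: the constitutive HSP90 gene Hsp90ab1 was at 0.06 ± 0.10 (-0.16 without scaling factors) and Stip1, which links HSP70 to HSP90, at 0.23 ± 0.10 (edgeR adjusted p = 0.733 and 0.117). Ahsa1 stayed called without each of 12 of the 14 libraries and was lost without transplant replicate 1 or 5 (edgeR adjusted p = 0.0552 and 0.0512). Ahsa2, Ptges3 and Fkbp5 stayed called without 7, 3 and 4 of the 14, respectively, at adjusted p of up to 0.0900, 0.111 and 0.114.

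Few partners of HSP70 passed the test. Of 14 other cytosolic HSP40 genes, 1 rose and 0 fell (median 0.03), where 3.31% of all tested genes rose and 4.23% fell. The HSP40 gene that rose was Dnaja1, which is farnesylated, from 269 ± 19.3 (SD, n = 8) to 339 ± 22.8 CPM (SD, n = 6) (0.33 ± 0.08, edgeR adjusted p = 0.0301). Its groups did not overlap, as was so in the higher direction for 0.571% of all tested genes. Its call was lost with trends removed (0.21, edgeR adjusted p = 0.148) and without 6 of the 14 libraries (up to 0.0708). It was also lost without a filter (0.33, edgeR adjusted p = 0.0824) and with the effective length offset (0.18, edgeR adjusted p = 0.546). By edgeR 0 of 7 other HSP70 and HSP110 genes (median -0.08), 0 of 9 nucleotide exchange and CHIP genes (median 0.14) and 0 of 4 tested small heat shock genes (median 0.26) were called. Bag3, an inducible exchange factor, was at -0.13 ± 0.10 and Hspa4, an HSP110, at -0.08 ± 0.09. Without scaling factors Hspa4 fell by 0.30 (edgeR adjusted p = 0.0331), and Hspa12b, Bag6 and the HSP40 gene Dnajc5 fell as well, where 21.1% of all genes fell. At 100 or above edgeR called Bag1 and Hspb8 as higher and Hspa12a and Bag6 as lower (26.0% of all genes called). With the number range covariate (19.6%) it called Hspbp1, Bag1 and 3 HSP40 genes, Dnaja1, Dnajc8 and Dnajb6, as higher. Of the HSP70 and HSP110, exchange and small heat shock genes DESeq2 called 0. Of these, 1, 2 and 1 had an unadjusted edgeR p under 0.05, as 3940 of all 13131 genes did. Among the HSP40 genes DESeq2 called Dnajb6 beside Dnaja1, where it called 15.0% of all genes.

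In the cytosolic chaperonin (TRiC, which folds actin and tubulin) and prefoldin, which hands it substrates, all 14 genes had a positive log2 fold change, from 0.11 to 0.57 with a median of 0.29. Of all 13131 tested genes 6182 had a positive one. In the chaperonin and prefoldin list 2 of 14 passed, where 3.31% of all tested genes rose. They were the subunits Tcp1 (0.34 ± 0.09, edgeR adjusted p = 0.0322) and Cct6a (0.28 ± 0.08, edgeR adjusted p = 0.0416). Tcp1 stayed called without 8 and Cct6a without 5 of the 14 libraries, at adjusted p of up to 0.0802 and 0.0984. Without a filter and with the effective length offset edgeR called 0 of the 14 (12 and 11 at an unadjusted p under 0.05), where it called 2.68% and 2.40% of all genes. With length and GC trends removed, in a fit that called 4.70% of all genes, 13 stayed positive (median 0.21). Cct6a alone passed there (0.33, edgeR adjusted p = 0.0313), and Tcp1 did not (0.25, edgeR adjusted p = 0.0849). DESeq2 called 6 of the 14 and edgeR with the number range covariate 10, where they called 15.0% and 19.6% of all tested genes. In libraries numbered 100 or above 12 of the 14 passed, where 14.5% of all tested genes rose, and below 100 edgeR called 0 (1 at an unadjusted p under 0.05, median 0.16). Without scaling factors, which moved the median of all genes from -0.02 to -0.25, 12 of the 14 stayed positive. In that fit Ahsa1, Dnaja1, Tcp1 and Cct6a were at 0.19, 0.10, 0.11 and 0.06, and none of these 4 passed.

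Among 17 other mitochondrial chaperones and proteases, 2 rose and 0 fell (median 0.11), against 3.31% and 4.23% of all tested genes. Without scaling factors 0 rose and 4 fell (Spg7, Lonp1, Afg3l2 and Hspa9, median -0.11), and without a filter or with the effective length offset edgeR called 0 (5 and 4 at an unadjusted p under 0.05). Grpel1, the nucleotide exchange factor of mitochondrial HSP70, rose by 0.43 ± 0.12 (edgeR adjusted p = 0.0416). Dnaja3, a mitochondrial HSP40, rose by 0.27 ± 0.08 (edgeR adjusted p = 0.0467) with no overlap between groups, which in the higher direction held for 0.571% of all tested genes. Both also passed with length and GC trends removed (0.58 and 0.36, edgeR adjusted p = 0.0386 and 0.0249), but they stayed called without only 5 and 3 of the 14 libraries. Grpel1 was 0.14 below 100 and 0.71 at 100 or above. Mitochondrial HSP70 itself (Hspa9) was at -0.08 ± 0.10 and the mitochondrial HSP90 Trap1 at 0.00 ± 0.08 (edgeR adjusted p = 0.607 and 0.992). Both directions depended on the fit, with Hspa9 at 0.02 with trends removed and at -0.31 without scaling factors, where it fell (edgeR adjusted p = 0.0410), and Trap1 at -0.23 without scaling factors. In the endoplasmic reticulum 0 of 12 chaperone genes were called by edgeR over all 14 libraries with the group as the only term (2 at an unadjusted p under 0.05). DESeq2 called 1, Manf. EdgeR also called Manf with the number range covariate (19.6% of all genes) and Dnajc3 with trends removed and that covariate (8.87%), both as higher. At 100 or above it called Pdia6 and Manf, 1 as higher and 1 as lower (26.0%). Hspa5 (BiP) was at 0.26 ± 0.17 and Hsp90b1 at 0.14 ± 0.13, the latter -0.09 without scaling factors.

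**Figure D4:**
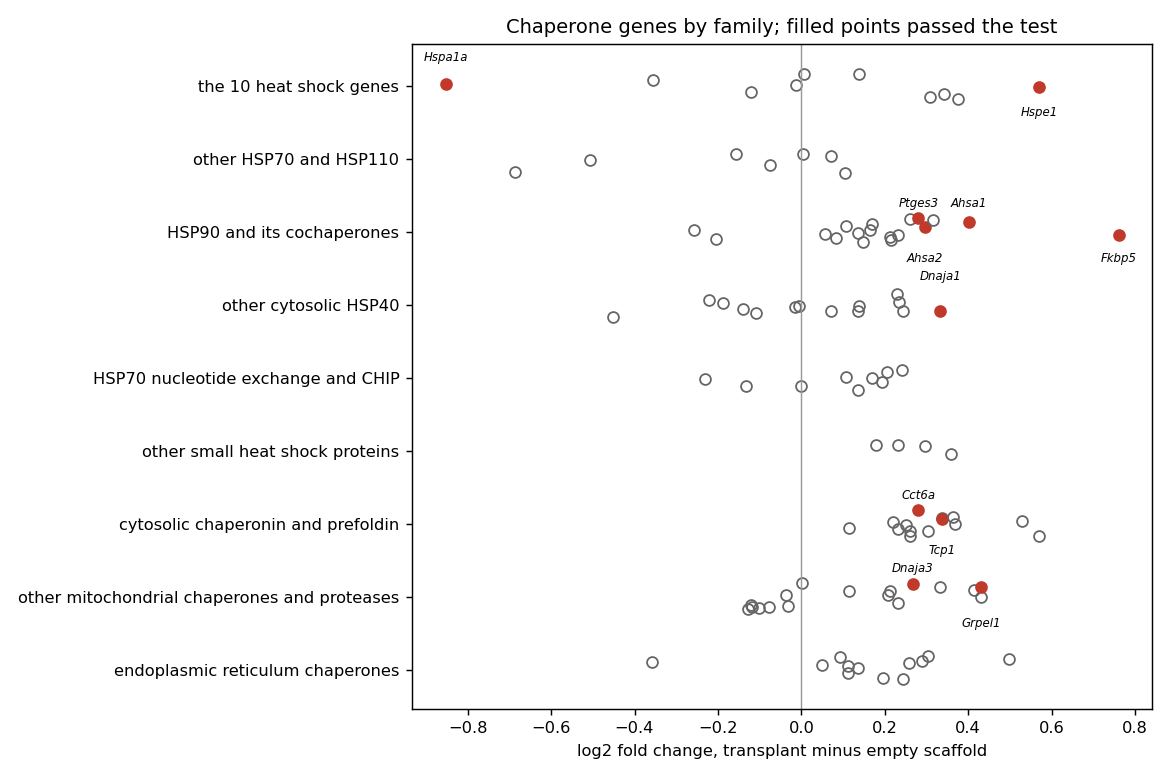
Log2 fold change (x axis, transplant minus empty scaffold) of every tested gene of each chaperone list (rows, 1 point per gene); filled points passed edgeR's test at an adjusted p under 0.05 and are named. The chaperonin and prefoldin row lies wholly to the right of 0, and the HSP90 row holds 4 filled points.

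A list of 20 other known HSF1 target genes held 4 that rose and 0 that fell, with a median of 0.19, where 3.31% of all tested genes rose. They were Ahsa1, Dnaja1, Tcp1 and Ptges3, which the lists above also hold. With length and GC trends removed 2 of the 20 passed, Ahsa1 and Fkbp4 (4.70% of all genes called). Without a filter (2.68%), or with the effective length offset (2.40%), 1 passed (Ahsa1). DESeq2 and edgeR with the number range covariate each called 7 of the 20 as higher (15.0% and 19.6% of all genes called). At 100 or above 7 rose, where 14.5% of all genes rose, and below 100 edgeR called 0 (0.0231%). Without scaling factors 0 rose and 3 fell (Serpinh1, Hspa4 and Hspa9, median -0.03), where 21.1% of all genes fell.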

How the data were processed

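Per the labels' protocols, RNA was extracted from liver with a column kit, and libraries were made with the NEBNext Ultra II Directional kit from samples with a RIN above 7. The submitters' processing notes name fastp 0.20, kallisto 0.46.1, DESeq2 1.38 and GRCm39 with no role or order. The sources used here give neither strand setting nor annotation release. Each deposited file lists, per transcript and per the file headers, an estimated count, a TPM, a length and an effective length. The deposited estimated counts are not normalized, and the deposited TPM values keep no depth. TPM values were not themselves tested. They served as weights of transcripts for the gene lengths, GC contents and effective lengths, which entered the fits with trends removed or with the effective length offset.

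GENCODE M21, made for GRCm38, was used for names and gene membership (it matched 120661 of 128803 transcripts, with at least 99.402% of each library's counts). Counts were summed per gene and rounded. Genes were kept by filterByExpr of edgeR 4.0.16 (R 4.3.3), libraries were scaled by TMM, and groups were compared with the quasi-likelihood test, robust, two-sided, with the group as the only term. Benjamini-Hochberg adjustment ran over all tested genes. CPM are TMM-scaled. The difference in mean total count between the groups had a two-sided exact permutation p of 0.309 over 3003 splits. Sequences that members share with other genes were counted as 31-base words of the transcripts.

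Alternatives were DESeq2 1.42.0, limma 3.58.1 with voom, other scaling, no filter, an offset from effective lengths, removal of length and GC trends (natural splines with 4 degrees of freedom per library), the number range as covariate or as subset, and leaving out each library. The genes named are all 10 members, up to 4 called members of each list, and a set of relatives named whatever their result. The members and lists were chosen with earlier results of these data known. Genes named by other fits were chosen after their values were seen. They were Fkbp4, Cdc37l1, Manf, Dnajc3, Pdia6, Cry1, Klf6, Unc45a, Rpap3, Spg7, Lonp1, Afg3l2, Hspa12a, Hspa12b, Bag1, Bag6, Serpinh1, Dnajb6, Dnajc5, Dnajc8, Hspbp1, Bhlhe41 and Per2.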

Additional observations from a re-analysis of the deposited data

Results flagged for a closer look

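Among the levels of the 10 genes in each group (20 groups of values, of which chance would single out about 1 in 20), the highest library stood apart from the rest in 2. Hspe1 in transplant replicate 1 was at 220.4 CPM, with the next transplant library at 152.7 CPM, a gap of 0.661 of the group's range against a critical value of 0.625. Without this library the log2 fold change of Hspe1 was 0.43 in place of 0.57. Hsf1 in empty scaffold replicate 5 was at 11.19 CPM, with the next empty scaffold library at 9.975 CPM, a gap of 0.591 of the range against a critical value of 0.526.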

How the results depend on the processing

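No paired analysis was possible because the sample titles carry no replicate numbers that the groups share. Over all genes 990 were called. DESeq2 called 1965, no scaling factors 2884, the effective length offset 315, trends removed 617, the number range covariate 2576, libraries below 100 alone 3 and those of 100 or above 3487, and leaving out 1 library gave 138 to 1910. Of the 10 members 2 were called. Without scaling factors, without a filter, with trends removed and with voom 1 was called, with the effective length offset and in the range below 100 the count was 0, and leaving out 1 library gave 0 to 3. Hspa1a and Hspa1b summed went from -0.16 to 0.046 with trends removed and 0.033 with the range covariate added, and to between -0.33 and -0.07 without 1 library. The difference between number ranges was called for 0 members without any library.

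Directions turned as follows. With trends removed, and with the range covariate added to that, Hspa1b was at 0.082 and 0.070, Hspd1 at 0.020 and 0.018, Hspa9 at 0.024 and 0.016, Bag3 at 0.021 and 0.020, Hspa4l at 0.009 and 0.009, Cirbp at -0.095 and -0.093 and Hsf2 at -0.016 and -0.016. Without scaling factors Hsp90aa1 was at -0.074, Hsf1 at -0.227, Hsp90ab1 at -0.160, Hsp90b1 at -0.089, Chordc1 at -0.057, Trap1 at -0.229, Cirbp at -0.186 and Hsf2 at -0.193. With the effective length offset Hsf1 was at -0.014, Chordc1 at -0.144 and Trap1 at -0.006. Hspd1 was at 0.002 with RLE factors and 0.001 with DESeq2, and Trap1 at -0.002 without a filter. Below 100, Hspd1 was at 0.112, Hsp90ab1 at -0.026, Hspa9 at 0.053, Chordc1 at -0.046 and Hspb8 at -0.059. At 100 or above, Hspb1 was at 0.109, Hsf1 at -0.007 and Trap1 at -0.012. Leaving out 1 library gave ranges across 0 for Hspd1 (-0.054 to 0.038), Hsf1 (-0.042 to 0.039), Trap1 (-0.023 to 0.026) and Cirbp (-0.039 to 0.15). In mean TPM, Hspa8 was at 724 in transplant against 760 in empty scaffold livers, and Hsp90aa1 at 66.9 against 83.4. Dnajb1 was at 6.78 against 7.18 TPM and Hsf1 at 4.22 against 5.85, each lower in transplant livers. Hsph1 was nearly level at 17.2 against 17.1 TPM, and no difference in TPM was tested. The cause was not tested. Hspa1a, at 6.23 to 21.38 estimated counts per library, is the member whose value depth limits most.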

Other observations

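The 10 tested genes outside the set whose levels over the 14 libraries most resembled the mean standardised log2 CPM of the heat shock genes were Grwd1 (Pearson r = 0.87), Srfbp1 (0.84), Tm6sf2 (0.82), Vnn3 (0.79), Nob1 and Ube2q1 (both 0.78), Hsp90ab1 (0.78), Ppid (0.77), F2 (0.77) and Lor (0.77). Only genes with a mean of at least 1 CPM were ranked, and genes with symbols of predicted genes or clones were left out. Hsp90ab1 and the cyclophilin Ppid are an HSP90 gene and an HSP90 cochaperone, and Grwd1 and Nob1 act in ribosome assembly. These points share libraries, depth and length trends, so the values are a description without a p.

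Genes that respond to temperature, time of day or handling were also counted. Of the cold-inducible RNA-binding genes Cirbp and Rbm3, 0 of 2 were called by edgeR, with 0 at an unadjusted p under 0.05 and 0 called by DESeq2. Cirbp was at 0.06 ± 0.14 (-0.19 without scaling factors, edgeR adjusted p = 0.807). Of 14 tested circadian clock genes 1 fell, the repressor Nr1d1 (-0.58 ± 0.14, edgeR adjusted p = 0.0299), which stayed called without each of 10 of the 14 libraries. In this fit 4.23% of all tested genes fell. At 100 or above 3 of 15 clock genes fell, Bhlhe41, Nr1d1 and Per2, where edgeR called 26.0% of all genes. Below 100 it called 0 of 14, with log2 fold changes of -1.27 to 0.95. There 7 of the 14 had an unadjusted edgeR p under 0.05, as did 1207 of all 12970 genes. With length and GC trends removed Nr1d1 was at -0.42 and did not pass (edgeR adjusted p = 0.0645), while Cry1, chosen after its value was seen, passed at 0.48 (edgeR adjusted p = 0.0323). Of 14 tested immediate early genes 0 were called by edgeR (3 at an unadjusted p under 0.05) and 1, Klf6, by DESeq2, and the median of the list was -0.31 against -0.02 over all genes.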
